A study of Sus scrofa with 48 samples.

Results

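Glycogen genes of perirenal adipose tissue (PRAT), the fat around the kidney, were examined in 48 pigs. The set held 9 genes, UGP2, GYG1, GYS1, GYS2, GBE1, PYGL, GSK3B, PPP1R3C and PPP1R3D, and its members were all probes that the array files name for them. There were 27 such probes among the 60305 distinct probes of the array, and 26 of them were among the 38142 probes tested, the exception being a PPP1R3C probe outside the authors' filtered table. The pigs were of the Large White breed, aged 132 days, and came from a line selected for low residual feed intake (low RFI, RFIneg, more efficient) or a line selected for high residual feed intake (high RFI, RFIpl). The feed, freely available, was rich in fat and fiber (HF) or poor in both and rich in starch (LF), and the 2 feeds and 2 lines gave 4 groups of 12 pigs. The diets differed in fat, fiber and starch together, so these cannot be told apart. RNA of whole tissue from each pig was labelled with Cy3 and read on 1 one-colour porcine array, and in such tissue fewer cells of a type and less RNA per cell cannot be told apart. The comparisons ask whether diet and line change the levels of genes that build or break down glycogen.

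Glycogen is the branched glucose polymer in which cells keep a short-term glucose reserve, and adipocytes hold a small store of it that turns over with feeding. UGP2 makes the UDP-glucose that feeds the pathway, GYG1 (glycogenin) primes the chain, glycogen synthase (GYS1, the muscle type found in many tissues, and GYS2, the liver type) extends it, and GBE1 puts in the branches. PYGL, the liver type of glycogen phosphorylase, releases glucose units from the chain. GSK3B is a kinase that phosphorylates and inactivates glycogen synthase, while PPP1R3C and PPP1R3D bring protein phosphatase 1 to glycogen, where it activates the synthase and inactivates the phosphorylase.

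The array reads these genes through probes of 60 bases. Probes over the muscle and the liver type of glycogen synthase are shown because both enzymes are alike in sequence and because the GYS2 probes disagreed. They are printed 5′ to 3′ as on the array, with capitals in the first pair of sequences for the bases that both share.
GYS1 probe A_72_P442869: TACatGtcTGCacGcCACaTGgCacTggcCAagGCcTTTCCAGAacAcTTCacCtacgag
GYS2 probe A_72_P454928: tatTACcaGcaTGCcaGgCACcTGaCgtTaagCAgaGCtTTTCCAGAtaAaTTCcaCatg
GYS2 probe A_72_P416118: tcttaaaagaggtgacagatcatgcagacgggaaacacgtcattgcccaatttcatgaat
GYS2 probe O9211: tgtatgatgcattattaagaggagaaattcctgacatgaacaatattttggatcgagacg
GYS2 probe A_72_P388198: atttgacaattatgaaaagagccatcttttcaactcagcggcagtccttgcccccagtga
With the GYS2 probe A_72_P454928 shifted by 3 bases, the best of 61 shifts tried without gaps, it shared 32 of 57 bases (56.1%) with the GYS1 probe, and their longest common run was 8 bases. The GYS2 probes had no run of 12 or more bases in common with each other or with a GYS1 probe. Overlap did occur elsewhere. In PYGL, 3 probes shared runs of 46 to 52 bases, and in UGP2 a pair shared 50 bases and another pair 57 bases, so these probes read nearly the same stretch and are not separate evidence.

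Values are log2 of the median spot signal minus the median of all probes that are not controls on the same array. They compare pigs for 1 probe and not different genes. Differences are HF minus LF on this log2 scale, from limma with diet, line and their interaction, and a probe was called at a raw p under 0.01, a fold over 1.1 and a Benjamini-Hochberg (BH) adjusted p under 0.08 over all tested probes. A gene is given by its brightest tested probe unless a probe is named. GSK3B, GYS2 and UGP2 also stand in a list that the study chose on these pigs, so their direction is not independent evidence.

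Probes of 5 of the 9 genes were lower in HF pigs, and no probe was called higher. Of the 26 tested probes, 16 were called lower in HF pigs and 0 higher, where over all tested probes 15.5% were called lower and 8.97% higher. The split over all tested probes moved with the centring, from 5912 lower and 3423 higher here to 4707 and 4543 with the 75th percentile and 4361 and 4701 after quantile normalization. The median diet difference was -0.18 over the 26 probes and -0.02 over all tested probes. The called probes were 5 of 6 for UGP2, 3 of 4 for GYS2, both for GBE1, 3 of 4 for PYGL and all 3 for GSK3B. At the brightest probe 4 of 9 genes were called, namely UGP2, GBE1, PYGL and GSK3B. By role, 10 of 16 probes of synthesis genes, 3 of 4 of PYGL and 3 of 6 of the regulators were called lower.

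**Figure D1:**
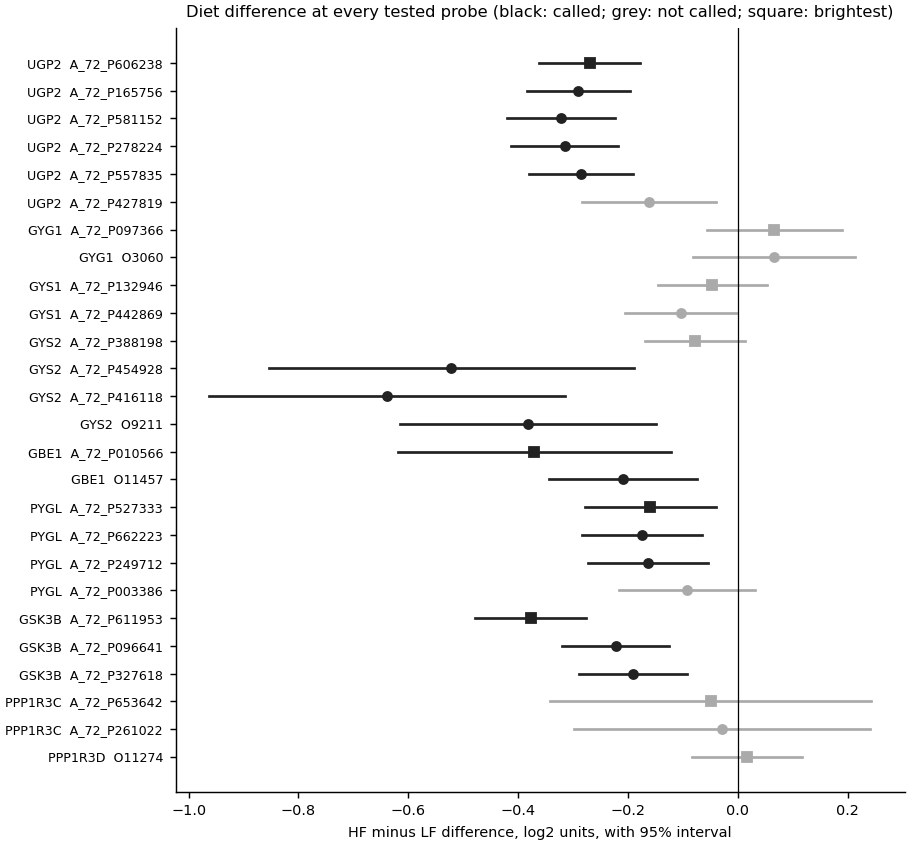
Diet difference (HF minus LF, log2 units, horizontal axis) at each of the 26 tested probes, with its 95% interval, black where called and grey where not, squares marking the brightest probe of a gene. Called probes of UGP2, GYS2, GBE1, PYGL and GSK3B all lie left of 0, and the brightest GYS2 probe lies near 0, unlike the other 3 of that gene.

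UGP2, the source of UDP-glucose, was lower on HF. Its level was 4.73, 4.98 and 5.24 (lowest, median and highest) in the 24 HF pigs and 4.79, 5.27 and 5.58 in the 24 LF pigs. In 23 of 24 HF pigs the value was under the mean of the LF group, 13 LF pigs lay above every HF pig, and the ranges overlapped. The difference was -0.27 ± 0.05 (SE), a 1.21-fold higher level on LF, with a BH adjusted p of 2.11e-05 from limma. Over the 6 UGP2 probes the differences ran from -0.32 to -0.16, and the dimmest probe, A_72_P427819, was not called at a raw limma p of 0.0104.

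GYG1, the primer of the chain, gave no call. Its level was 2.85, 3.17 and 3.66 in HF pigs and 2.82, 3.13 and 3.47 in LF pigs, and the ranges lay over each other. The difference was 0.07 (95% interval -0.06 to 0.19), and the second GYG1 probe gave 0.07 too.

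GYS1, the synthase of muscle and many other tissues, gave no call either. Its level was 1.48, 1.85 and 2.15 on HF and 1.62, 1.92 and 2.22 on LF. The difference was -0.05 (95% interval -0.15 to 0.05), and the dimmer GYS1 probe gave -0.10 with a BH adjusted p of 0.108 from limma.

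GYS2, the liver type of synthase, differed between its own probes. The brightest probe, A_72_P388198, was at 0.64, 0.98 and 1.21 on HF and at 0.82, 1.06 and 1.33 on LF, with a difference of -0.08 (95% interval -0.17 to 0.01), and was not called. The other 3 probes were called lower on HF. Probe A_72_P416118 was at -1.72, -1.07 and 0.38 on HF and at -1.23, -0.30 and 1.17 on LF. Its difference of -0.64 ± 0.16 (SE), a 1.56-fold higher level on LF, had a BH adjusted p of 0.00226 from limma, with 21 of 24 HF pigs below the LF mean. Probe A_72_P454928 differed by -0.52 ± 0.16 and probe O9211 by -0.38 ± 0.12 (SE). The ranges of the diets overlapped at all 4 probes. The mean of the 4 probes differed by -0.41 ± 0.11 (SE).

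Those 3 GYS2 probes were dim. A_72_P454928, A_72_P416118 and O9211 were well above background on 46, 43 and 31 of the 48 arrays. On the 24 LF arrays the counts were 24, 24 and 20, and on the 24 HF arrays 22, 19 and 11. The HF level of each was thus partly at the background, most of all for O9211, and these differences are less certain than their SE. With probes required to be well above background on all arrays, these 3 probes drop out, 13 member probes were called and none of them was of GYS2. Over all 34688 probes left in that setting, 5705 were called lower on HF and 3272 higher. The brightest probe was well above background on all 48. After removal of the group means, the 3 dim probes followed each other over the 48 pigs (Pearson r 0.83 to 0.91, Spearman rho 0.81 to 0.91), whereas A_72_P388198 had an r of 0.27 to 0.37 (rho 0.22 to 0.26) with them. Which of them reads GYS2 in this tissue was not tested.

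**Figure D2:**
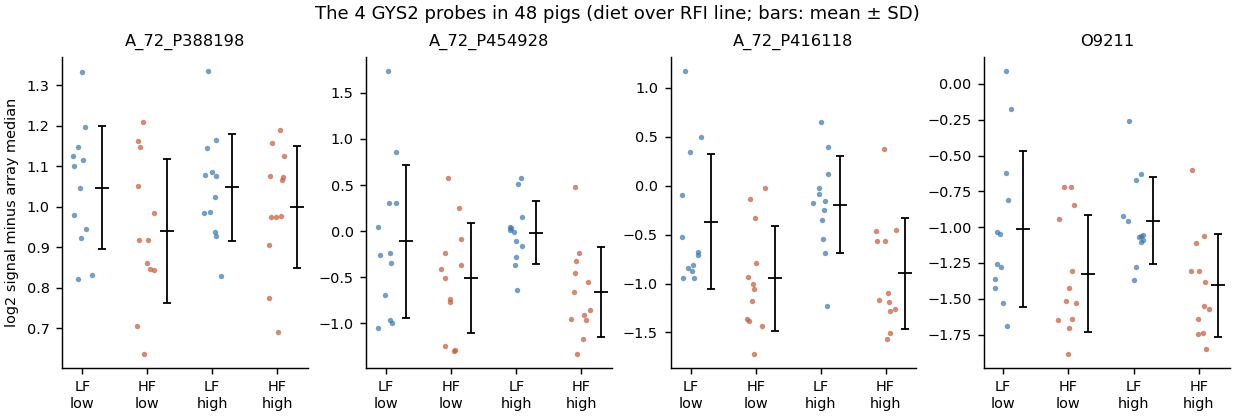
Log2 signal minus the array median (vertical axis, own scale in each panel) of the 4 GYS2 probes in the 12 pigs of each diet and line group, with mean ± SD as bars. HF pigs lie lower at A_72_P454928, A_72_P416118 and O9211, and the groups lie over each other at A_72_P388198.

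GBE1, the branching enzyme, was lower on HF at both probes. Its level was 2.65, 3.43 and 4.44 on HF and 3.08, 3.79 and 4.69 on LF, and 10 HF pigs lay below every LF pig. That count pools the lines, which also differed at this probe. The medians on HF and LF were 3.83 and 4.17 in low RFI pigs and 3.07 and 3.61 in high RFI pigs. The difference was -0.37 ± 0.12 (SE), a 1.29-fold higher level on LF, with a BH adjusted p of 0.0197 from limma. The dimmer probe, O11457, gave -0.21 ± 0.07. After quantile normalization the brighter probe was not called (-0.33) and O11457 was.

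PYGL, the phosphorylase, was lower on HF by a smaller step. Its level was 5.76, 6.0 and 6.62 on HF and 5.81, 6.15 and 6.74 on LF, with 18 of 24 HF pigs below the LF mean and wide overlap. The difference was -0.16 ± 0.06 (SE), a 1.12-fold higher level on LF, with a BH adjusted p of 0.0354 from limma. The 3 overlapping probes gave -0.17 to -0.16, while A_72_P003386, which shares no long run with them, gave -0.09 and was not called. The call at the brightest probe was lost when arrays were centred on their 75th percentile (-0.14), after quantile normalization (-0.07), and with slide as a block or in the methods' two-way analysis of variance, where the raw p rose past 0.01 at an unmoved difference. After quantile normalization, with or without normexp, 0 of the 4 PYGL probes were called, which leaves 4 genes with a called probe.

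GSK3B, the kinase that restrains glycogen synthase, had the smallest p among the members. Its level was 3.17, 3.45 and 3.70 on HF and 3.56, 3.81 and 4.28 on LF. Each of the 24 HF values was under the mean of the LF group, 18 HF pigs lay below every LF pig and 19 LF pigs lay above every HF pig. The difference was -0.38 ± 0.05 (SE), a 1.30-fold higher level on LF, with a BH adjusted p of 4.6e-07 from limma. The other GSK3B probes gave -0.22 and -0.19, both called.

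The phosphatase subunits were not called. PPP1R3C was at 4.63, 5.47 and 6.31 on HF and at 4.74, 5.60 and 6.42 on LF, a difference of -0.05 (95% interval -0.34 to 0.24). Its SD was 0.52 on HF and 0.51 on LF, so that pigs of 1 diet differed by more than the diets. PPP1R3D was at 2.07, 2.31 and 2.76 on HF and at 1.99, 2.32 and 2.63 on LF, a difference of 0.02 (95% interval -0.08 to 0.12). The PPP1R3C probe outside the tested set, O13753, gave -0.06 in a fit to all probes.

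**Figure D3:**
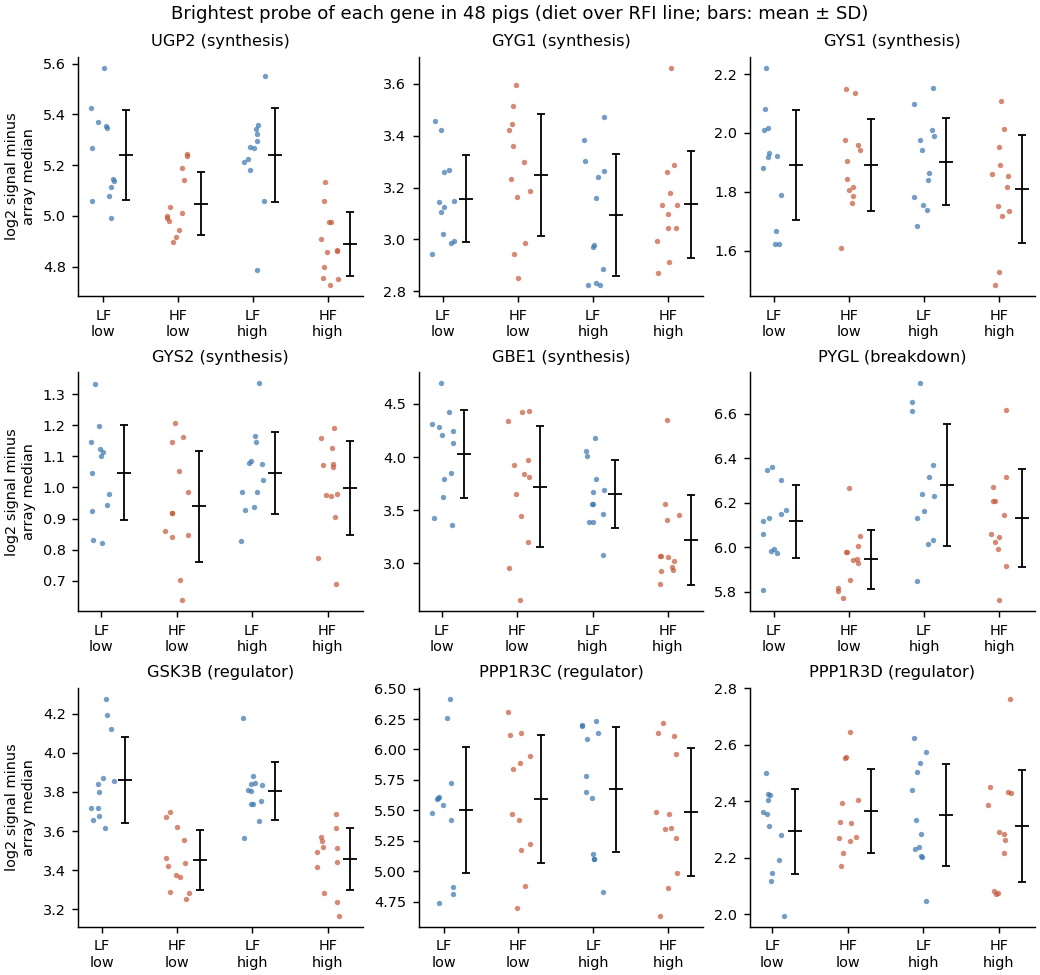
Log2 signal minus the array median (vertical axis, own scale in each panel) at the brightest probe of each of the 9 genes in the 12 pigs of each diet and line group, with mean ± SD as bars. GSK3B and UGP2 lie lower in HF pigs of both lines, GBE1 also lies higher in low RFI pigs, and PPP1R3C spreads widely in every group.

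These differences are relative to the array median. When arrays were centred on their spike-in controls instead, the median of the 38142 tested probes was 0.12 higher on HF rather than 0.02 lower, and calls over all of them rose from 9335 to 11543. With that centring 2.13% of all tested probes were called lower and 28.1% higher. Of the 26 member probes 3 were then called, all lower, 1 each of GYS2 (A_72_P416118, -0.49), GSK3B (A_72_P611953, -0.23) and UGP2 (A_72_P581152, -0.18). GBE1 and PYGL were then at -0.22 and -0.01 without a call, and GYS1, GYS2 (brightest probe) and PPP1R3C turned to positive values without a call.

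Within the lines, 7 of the 26 probes were called lower on HF in low RFI pigs (background 8.69%) and 12 in high RFI pigs (background 10.6%). UGP2 differed by -0.19 in low and -0.35 in high RFI pigs, and GSK3B by -0.41 and -0.35. The difference between the lines was itself tested as an interaction, and no member probe was called (0 of 38142 probes overall). The smallest raw interaction p from limma among the members was 0.0875, for UGP2, with an interaction of 0.16 (95% interval -0.02 to 0.34), and no member had a raw p under 0.05.

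Line gave 1 call among the 26 probes, a share close to the 3.6% called by line over all tested probes. The called probe was GBE1 A_72_P010566, higher in low RFI pigs. Its level was 2.65, 3.89 and 4.69 in the 24 low RFI pigs and 2.81, 3.43 and 4.35 in the 24 high RFI pigs. The 2 lines overlapped over most of their range. The line difference (low minus high RFI) was 0.44 ± 0.12 (SE), a 1.36-fold higher level in low RFI, with a BH adjusted p of 0.0363 from limma. It was 0.71 among the arrays of scan day 1 and 0.17 among those of scan day 2. The other GBE1 probe gave 0.12 with a BH adjusted p of 0.455. PYGL gave a line difference of -0.17 ± 0.06 (SE) but failed the correction, with a raw limma p of 0.00501 and a BH adjusted p of 0.111. The remaining 7 genes had line differences between -0.03 and 0.09 at the brightest probe.

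Synthesis and breakdown were then set against each other inside each pig, by subtracting the log2 value of PYGL from that of a synthesis gene of the same array, which removes the centring of the array. In all 7 within-pig differences were tested with 100000 two-sided permutations of diet within line, and the raw p-values are not adjusted. GYG1 relative to PYGL was higher on HF by 0.23 (95% interval 0.05 to 0.40, permutation p = 0.0127), and exceeded the mean of the LF group in 18 of 24 HF pigs. GYS1 relative to PYGL was higher by 0.11 (0.01 to 0.22, permutation p = 0.0375), and exceeded it in 17 of 24 HF pigs. UGP2 relative to PYGL differed by -0.11 (-0.25 to 0.03, permutation p = 0.116) and GBE1 relative to PYGL by -0.21 (-0.46 to 0.04, permutation p = 0.0981). GYS2 relative to PYGL differed by 0.08 (-0.07 to 0.24, permutation p = 0.286). GYS2 relative to GYS1 differed by -0.03 (-0.17 to 0.11, permutation p = 0.66) and PPP1R3C relative to PPP1R3D by -0.07 (-0.36 to 0.22, permutation p = 0.646).

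These values depended on the probes. With the mean of a gene's tested probes in place of the brightest, GYS2 relative to PYGL turned to -0.26 (permutation p = 0.0582), GYS2 relative to GYS1 became -0.33 (permutation p = 0.0131), and GYS1 relative to PYGL fell to 0.07 (permutation p = 0.192). For GYS2 that mean counts the dim probes A_72_P454928, A_72_P416118 and O9211, each partly at the background on HF and O9211 the most.

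**Figure D4:**
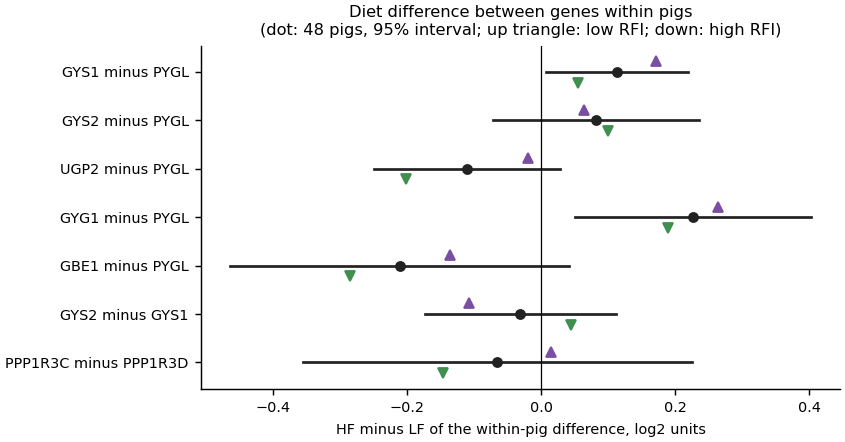
HF minus LF difference of each within-pig difference between genes (horizontal axis, log2 units), as a dot with its 95% interval for 48 pigs and triangles for each line alone. The intervals of GYG1 minus PYGL and GYS1 minus PYGL lie right of 0, and the other 5 cross 0.

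Of 35 other genes of the pathway, 23 had a tested probe. The synthesis side was broad and also held genes with wider or restraining roles, among them GSK3A, PPP1R1A, EPM2A, HK1, HK2 and SLC2A4. Its count therefore does not measure synthesis against breakdown. On the synthesis side 5 of 14 were called lower on HF and 0 higher, and on the breakdown side 2 of 9 lower and 0 higher. These are genes at their brightest probe, while the shares over all tested probes, 15.5% lower and 8.97% higher, count probes. The lower genes were led by those that bring glucose into the cell and trap it there. HK2, a hexokinase, was at 4.51, 6.07 and 6.91 on HF and 6.29, 6.82 and 7.75 on LF, a difference of -0.79 ± 0.13 (SE). SLC2A4, the insulin-responsive glucose transporter, differed by -0.77 ± 0.18, called at 2 of its 4 tested probes, and HK1, another hexokinase, by -0.61 ± 0.11. EPM2A, the glycogen phosphatase laforin, differed by -0.42 ± 0.08, and PPP1CB, a catalytic subunit of protein phosphatase 1, by -0.14 ± 0.04, called at 1 of its 12 probes. On the breakdown side PYGM, the muscle phosphorylase, differed by -0.24 ± 0.08 and PHKG2, a subunit of phosphorylase kinase, by -0.16 ± 0.05. PHKA1, another subunit of phosphorylase kinase, gave 0.13 without a call because its fold was under 1.1. ADRB1, an adrenergic receptor, was not called at its brightest probe, while 1 of its 2 probes was called higher. No gene of these 23 was called by line.

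**Figure D5:**
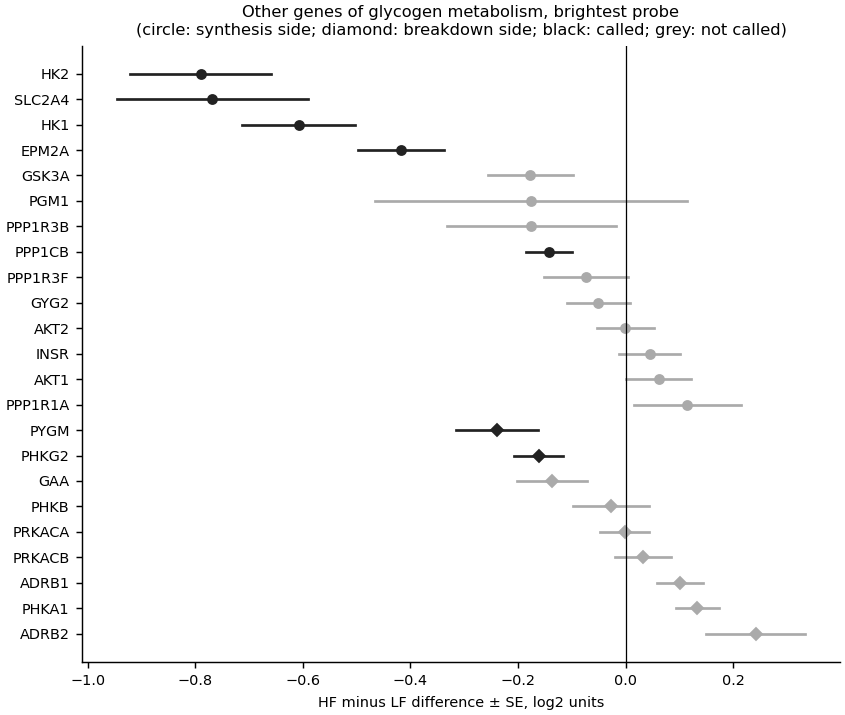
Diet difference (HF minus LF, log2 units) ± SE at the brightest probe of the 23 other genes of glycogen metabolism with a tested probe, circles for the synthesis side, diamonds for the breakdown side, black where called. HK2, SLC2A4, HK1 and EPM2A lie farthest to the left.

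Patterns most like a member were sought over the 48 pigs after removing the group means, as descriptions. Over 8341 named genes, PPP1R3C was closest to PPP1R3B (r = 0.71, rho = 0.63), which targets the same phosphatase to glycogen, followed by PFKFB3 (0.70, rho = 0.74), a glycolytic regulator, SNAI2, RND3 and KCTD6. PYGL was closest to TRMT1 (r = 0.68, rho = 0.70), AAGAB, PTPRU, DALRD3 and CDC37, and GYS1 ranked 56 (r = 0.54, rho = 0.53). GYS2 at its brightest probe was closest to MRPL22 (r = 0.66, rho = 0.60), PTP4A3, SPATA5L1, HPCA and ADRA2A. The points share array and slide.

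Markers of other cells moved as well. Of 8 macrophage markers, 7 were called higher on HF, and the mean level of the list was 2.01, 3.43 and 4.44 on HF and 1.72, 2.82 and 4.09 on LF. After removal of the group means this list had an r of -0.64 (rho = -0.56) with GSK3B, -0.43 (rho = -0.33) with GYS1, -0.39 (rho = -0.40) with PPP1R3C and 0.33 (rho = 0.30) with GYG1. The fibroblast list, with 0 of 4 markers called, was at 7.93, 8.48 and 9.10 on HF and 7.22, 8.25 and 8.94 on LF, and had an r of -0.62 (rho = -0.56) with GSK3B, -0.47 (rho = -0.41) with UGP2 and -0.43 (rho = -0.40) with GYS1. The adipocyte list had an r of 0.60 (rho = 0.56) with GYS1, 0.46 (rho = 0.49) with GSK3B and 0.40 (rho = 0.38) with PYGL. These values depended on the probe. GSK3B probes A_72_P096641 and A_72_P327618 had an r of -0.35 and -0.48 (rho -0.27 and -0.42) with the macrophage list. With the fibroblast list r was -0.34 and -0.46 (rho -0.26 and -0.42), and with the adipocyte list 0.21 and 0.23 (rho 0.23 and 0.22). Of 8 adipocyte markers, 2 (CIDEC and LEP) were called lower and 0 higher, and all 8 had tested probes, with a mean level of the list of 8.66 to 9.14 on HF and 8.75 to 9.33 on LF. Liver markers, among them ALB, were high in some pigs. The mean of the 5 tested liver genes ran from -0.27 to 3.88 on HF and from -0.10 to 5.86 on LF, with 0 of 5 genes called by diet, and was above 2 in 15 pigs, which were 5 HF low RFI, 6 LF low RFI, 4 LF high RFI and 0 HF high RFI pigs. Without those 15 pigs, 15 member probes were called by diet, all of them lower, beside 16.8% of all tested probes called lower and 6.7% higher. GYS1 gained 1 called probe (A_72_P442869, -0.17). Of the GYS2 probes A_72_P416118 was still called (-0.58), while A_72_P454928 (-0.52) and O9211 (-0.35) were not, at differences close to those in all pigs. The GBE1 probe A_72_P010566 was no longer called by line, at a line difference of 0.47 (raw limma p 0.00518, BH adjusted p 0.2) over 33 pigs. Calls by line over all tested probes fell from 1372 to 430 in those pigs. AQP2, the tested kidney marker, was called lower on HF (-0.63), and of 5 tested muscle markers 1 was, PYGM. After removal of the group means AQP2 had an r of 0.39 (rho = 0.44) with GYS1 and 0.32 (rho = 0.34) with GBE1. The adrenal list had an r of 0.36 (rho = 0.38) with PPP1R3C, and the liver list -0.34 (rho = -0.34) with GYG1. With the brightest GYS2 probe, A_72_P388198, the liver list had an r of 0.32 (rho = 0.34). With the other GYS2 probes its r was -0.16 to 0.14 (rho -0.06 to 0.14). None of the endothelial, erythrocyte, adrenal or T and NK cell markers tested was called. The part of these cells in the member differences was not tested.

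The arrays lay on 6 slides with 2 pigs of each group on each slide and were scanned on 2 days. GSK3B, UGP2, GBE1 and the brightest GYS2 probe were lower on HF in all 6 slides (GSK3B by -0.49 to -0.28) and PYGL in 5 of 6. The diet difference of PYGL was -0.06 on scan day 1 and -0.26 on scan day 2, and that of GSK3B was -0.37 and -0.39.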

How the data were processed

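Scanner files of 48 one-colour arrays were used, 1 per pig, with groups taken from the labels. The spot intensity values, not normalized, and flags of 0 or 1 (other) were deposited as made by Feature Extraction 10.7.3.1. Per the labels and methods, the authors filtered spots, took log2 of the Cy3 signal in R 2.10.0 and centred each array on its median, and deposited these log2 values for 38142 probes. Each entry equalled 1 spot within a tolerance of 1e-06, but its row name was that of the spot in only 2 cases, so the spot's name was used. A genome build is not given in the sources used here.

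Here log2 of the median signal minus the array median was fitted over the 38142 probes with limma 3.58.1 (R 4.3.3), tested on simulated data, and within-pig differences were permuted with Python (numpy, scipy). Per array 35787 to 38118 tested probes were well above background and saturation was absent. Precision is limited by how many arrays there are. Named genes were all members, a list of other pathway genes, and the 5 genes most like GYS2, PYGL and PPP1R3C among genes whose name is a symbol in the reference tables. Members, gene lists and tests were chosen with earlier results of these data known. Subcutaneous tissue was not analysed here, and some genes of the pathway list are not reported here. Alternatives covered scaling, filter, model and thresholds. The mean of a gene's probes was judged at the raw p and fold alone, without a BH adjustment.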

Additional observations from a re-analysis of the deposited data

How the results depend on the processing

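The 16 member probes called by diet became 3 with spike-in centring and 1 with a fold over 1.5 (calls by diet over all 38142 probes went from 9335 to 11543 and 419), and lay between 12 and 17 under the other alternatives, including 15 without the 15 pigs with high liver markers (an alternative chosen after seeing the data). The 1 probe called by line became 3 with quantile normalization, with normexp and quantile and with the replicate block (PYGL at 2 probes added), and 0 with a fold over 1.5 or without the high-liver pigs, where the GBE1 line difference was 0.47 rather than 0.44. The interaction had 0 member calls in each setting run. Within low RFI pigs 7 probes called by diet became 1 with spike-in centring, a PPP1R3D probe that was higher on HF (0.27), and 0 with a fold over 1.5. Within high RFI pigs 12 became 2 under either. Over all probes, calls by line went from 1372 to 645 with spike-in centring and 222 with a fold over 1.5. They were 430 without the high-liver pigs, 1444 with quantile normalization and 1387 with normexp and quantile. In low RFI pigs, calls by diet over all probes went from 5123 to 8597 with spike-in centring and 408 with a fold over 1.5. In high RFI pigs they went from 5822 to 2480 and 436.

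For the within-pig differences, GYS1 minus PYGL was weaker with the mean over probes (0.0722), with the processed signal (0.10) and in high RFI pigs alone (0.0553), and GYG1 minus PYGL in high RFI pigs alone (0.19). GYS2 minus PYGL reversed with the mean over probes (-0.26), where GYS2 minus GYS1 became stronger (-0.33), both with the dim GYS2 probes counted. GYS2 minus GYS1 reversed in high RFI pigs alone (0.0444), and PPP1R3C minus PPP1R3D in low RFI pigs alone (0.014). Among single genes not called, the sign of the diet difference turned with spike-in centring for GYS1 (0.10), GYS2 (0.0686) and PPP1R3C (0.10), and with quantile normalization (0.0218) and with normexp and quantile (0.0205) for PPP1R3C, and that of the line difference of PPP1R3D with spike-in centring (0.00627). The cause was not tested.

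By the rule that every pair correlates over 0.1, replicate numbers were not taken to pair the pigs. Arrays with the same number also lay on the same slide, and likeness by number was not told apart from likeness by slide. Of 72 pairs of arrays with the same number, 38 had a residual correlation over 0.1 (median 0.12, against -0.03 for pairs with other numbers), and 15 of 48 samples were closest to a sample of their own number. The replicate block moved calls over all probes from 9335 to 10149 by diet and from 1372 to 1832 by line, and changed no call of a within-pig difference.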
